A study of Mus musculus with 8 samples.

Results

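The costimulatory receptors described here are 10 genes: Tnfrsf9, Tnfrsf4, Tnfrsf18, Tnfrsf1b, Tnfrsf14, Cd27, Cd28, Icos, Cd226 and Crtam. They were chosen by gene symbol, from what their proteins do and not from their values, out of 19337 symbols listed in either of the deposited tables. All 10 had a row in both tables, and all 10 passed the filter on low values in both. The study sequenced polyadenylated RNA of OT-I cells, CD8+ T cells whose transgenic antigen receptor recognises an ovalbumin peptide, recovered from tumors of B16-OVA, an ovalbumin-expressing derivative of the mouse melanoma B16. OT-I cells that were Zbtb32-/- or WT were transferred together, as naive cells, to B6 mice 1 day ahead of subcutaneous tumor implantation. Each genotype was recovered by flow sorting at day 30, so both shared the transgenic receptor, the host strain and the tumor line. The labels mention no depletion of the hosts' own lymphocytes. Each genotype was sequenced as all sorted OT-I cells (the whole OT-I sort) and as the Tim-3+ subset labelled Ttex, giving 8 libraries with 2 replicates in each of 4 groups. The labels do not tie the replicates to separate animals, so the p-values measure only the spread between these libraries, which may be technical.

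A T cell receives its first signal from the antigen receptor, and costimulatory receptors add a signal that sustains division, survival and cytokine output. The members belong to 3 families. The TNF receptor family signals through TRAF adaptors to NF-kB. The CD28 family signals through phosphatidylinositol 3-kinase and, for CD28 itself, Grb2. CD226 and CRTAM are immunoglobulin-type receptors for nectins and nectin-like molecules. Some members share their ligands with inhibitory receptors: CD28 with CTLA-4, and CD226 with TIGIT and CD96. The Tnfrsf14 product HVEM is itself bound by BTLA and CD160.

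Recovered depth ranged from 18.6 to 21 M reads per library in the whole OT-I sort and from 51.6 to 59.2 M in Ttex cells. The KO-labelled libraries did not have less Zbtb32 RNA: it stood at 94.9 and 73.0 FPKM against 79.8 and 87.1 FPKM in WT-labelled libraries, and in Ttex cells at 6822 and 5715 normalized counts against 3976 and 3951. The sources used here do not say which exons the knockout removes, so genotypes are named by their labels throughout. Tcf7, a progenitor T cell factor, was higher in KO-labelled libraries of both populations, by 0.83 (limma, adjusted p = 0.000202) and by 1.96 (adjusted p = 0.0471) on the log2 scale. The fold change of the median gene of all sorted OT-I cells was -0.24 on the log2 scale, and the deposited FPKM divisor was 1.12 and 1.25 times the recovered total in KO-labelled libraries against 0.962 and 0.951 times in WT-labelled ones. A fold change near -0.24 there is the change of the median gene. The sorted cells carried T cell transcripts in quantity, with 7 T cell markers summing to 1819 to 2625 FPKM. Cd4 was at 0.312 to 1.54 FPKM, but other cell types' markers were present. The macrophage, monocyte and dendritic cell list summed to 425 to 1011 FPKM and the NK cell list to 42.4 to 105 FPKM. Klre1 and Tyrobp made up most of the NK cell sum, with Ncr1 at 0.151 to 0.437 and Klrb1c at 0.349 to 0.857 FPKM. The 2 tables were normalized separately, so levels are compared only within a table.

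The 5 TNF receptor family members on chromosome 4 are Tnfrsf1b (145213463 to 145246870, minus strand), Tnfrsf9 (150914562 to 150946102, plus), Tnfrsf14 (154921933 to 154928563, minus), Tnfrsf4 (156013843 to 156016612, plus) and Tnfrsf18 (156026164 to 156028895, plus), on mm10 with GENCODE M21 annotation. Cd27 lies on chromosome 6 (125232622 to 125237010, minus). Cd28 (60716800 to 60773359, plus) and Icos (60977927 to 61000320, plus) lie on chromosome 1, and Crtam on chromosome 9 (40969691 to 41004628, minus). Tnfrsf9, Tnfrsf4 and Tnfrsf18 are shown by their promoter windows because they were the most abundant of the chromosome 4 members and had fold changes close to each other in all sorted OT-I cells. Each window holds 250 bases before to 50 bases after a RefSeq transcript start (GRCm38.p6, plus strand, 5′ to 3′), and RefSeq windows were matched for 6 of the 10 members. The windows are chr4:150927749-150928048 for Tnfrsf9, chr4:156013445-156013744 for Tnfrsf4 and chr4:156026072-156026371 for Tnfrsf18, and capitals mark matches to 3 motifs searched on both strands.
Tnfrsf9: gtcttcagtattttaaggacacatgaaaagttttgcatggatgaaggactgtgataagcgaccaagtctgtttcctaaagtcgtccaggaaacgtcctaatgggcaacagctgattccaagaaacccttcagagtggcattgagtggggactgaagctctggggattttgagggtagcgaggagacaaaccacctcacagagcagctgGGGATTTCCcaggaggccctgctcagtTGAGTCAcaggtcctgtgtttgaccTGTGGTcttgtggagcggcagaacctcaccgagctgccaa
Tnfrsf4: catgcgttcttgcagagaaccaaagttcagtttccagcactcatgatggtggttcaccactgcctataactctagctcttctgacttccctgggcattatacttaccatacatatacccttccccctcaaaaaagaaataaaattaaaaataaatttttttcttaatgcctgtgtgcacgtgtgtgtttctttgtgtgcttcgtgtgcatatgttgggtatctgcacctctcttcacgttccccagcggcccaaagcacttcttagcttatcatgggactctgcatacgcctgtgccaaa
Tnfrsf18: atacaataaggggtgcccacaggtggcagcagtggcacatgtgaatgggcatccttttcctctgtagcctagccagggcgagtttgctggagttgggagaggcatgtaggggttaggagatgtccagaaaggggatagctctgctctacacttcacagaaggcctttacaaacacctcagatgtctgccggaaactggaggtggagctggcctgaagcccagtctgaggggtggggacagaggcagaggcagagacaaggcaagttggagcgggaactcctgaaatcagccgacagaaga
RefSeq gives Tnfrsf9 another start, whose window (chr4:150919905-150920204) has no match to any of the 3 motifs and is not printed. The Tnfrsf9 window shown holds the NF-kB letters GGGNNTTCC from base 209, the AP-1 letters TGANTCA from base 236 and the RUNX letters TGTGGT from base 261, counted from 1 at its 5′ end, with no overlap between them. Of 32851 mouse promoter windows of the same length, 5.82% hold the NF-kB letters, 7.81% the AP-1 letters and 16.8% the RUNX letters. It was the 1 window of 7 from these 6 members with any match, and a match in letters is not a measured binding site.

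The members spanned a wide range of RNA levels, and the TNF receptors led. Among all sorted OT-I cells, Tnfrsf9, which encodes 4-1BB, was at 624 ± 18.1 FPKM in WT-labelled libraries (SD, n = 2), placing it among ranks 68 to 73 of 17495 genes by FPKM. Tnfrsf4, which encodes OX40, followed at 253 ± 5.33 FPKM, then Cd27 at 209 ± 8.63 and Tnfrsf18, which encodes GITR, at 207 ± 13.8 FPKM, whose library values overlapped. Tnfrsf1b, the gene of TNF receptor 2, was at 100.3 ± 31.6 FPKM. Below these lay Cd28 at 44.5 ± 0.0303 FPKM, Crtam at 19.7 ± 0.0429, Icos at 19.6 ± 0.119, Tnfrsf14 at 17.6 ± 1.56 and Cd226 at 9.28 ± 0.230 FPKM. Neighbours other than Cd27 and Tnfrsf18 did not overlap there.

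For KO-labelled cells the order in the same table ran from Tnfrsf9 at 495 ± 89.5 FPKM through Tnfrsf4, Cd27 and Tnfrsf18, each overlapping its neighbour, to Tnfrsf1b, Cd28 and Crtam. Tnfrsf14 at 14.2 ± 0.604 and Icos at 13.7 ± 1.04 FPKM overlapped, and Cd226 was again lowest at 5.57 ± 0.883 FPKM. In Ttex cells, per kb of merged exon, Tnfrsf9 led in both genotypes with 15142 ± 527 normalized counts per kb in WT-labelled and 13786 ± 1222 in KO-labelled libraries. Tnfrsf14 was lowest there, at 158 ± 70.4 and 177 ± 51.7 normalized counts per kb. Icos and Crtam stood in opposite orders in the 2 genotypes: Icos exceeded Crtam in WT-labelled Ttex libraries (1161 ± 37.8 against 841 ± 6.45 normalized counts per kb), and Crtam exceeded Icos in KO-labelled ones (1202 ± 83.7 against 1051 ± 12.3), without overlap in either.

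**Figure D1:**
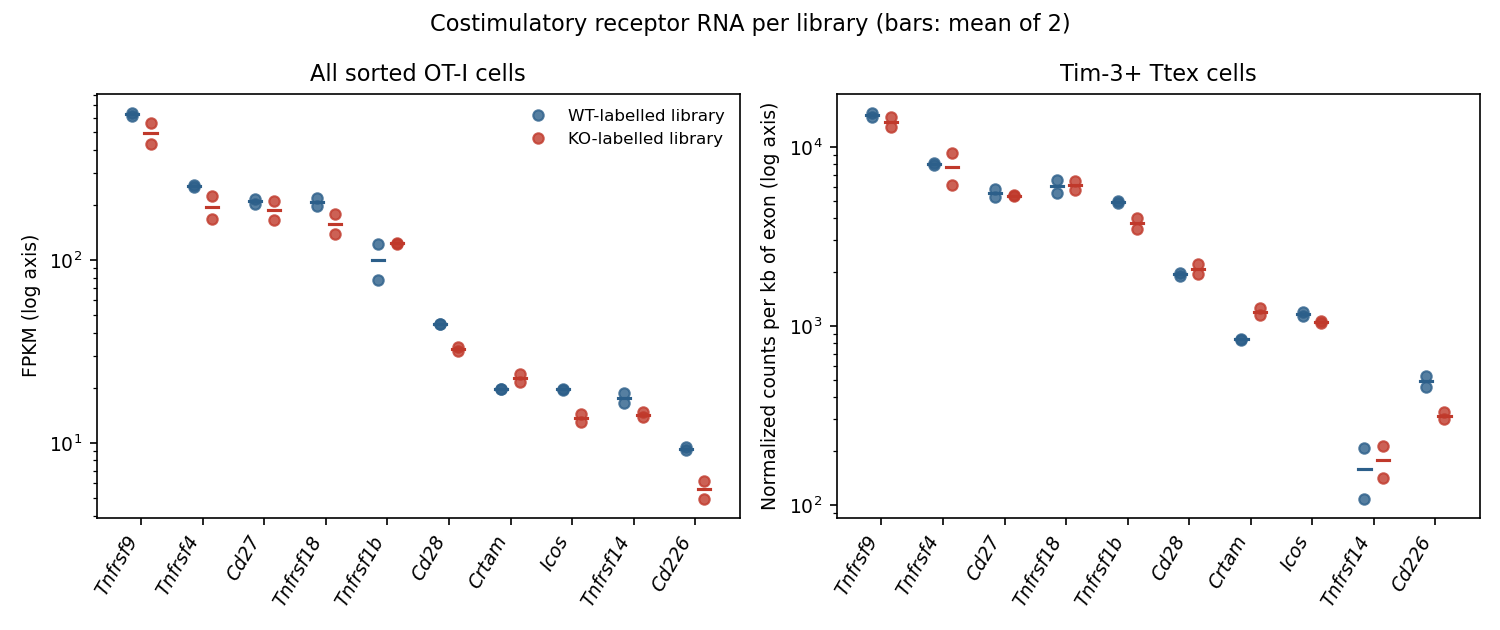
RNA level of each receptor in every library, as FPKM in all sorted OT-I cells and as normalized counts per kb of merged exon in Tim-3+ Ttex cells, on log axes, with a short bar at the mean of 2 libraries. Tnfrsf9 is highest in each group, and Cd226 lies lower in KO-labelled libraries in both populations.

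Comparing KO-labelled with WT-labelled cells asks which receptors differ when Zbtb32, a zinc finger transcription factor, is the gene labelled as knocked out. Cd226 was the receptor that fell most in all sorted OT-I cells, and Icos also fell by limma. No member was called higher. Among the 9574 genes tested there, 30.4% were called lower and 2.45% higher, against 2 and 0 of the 10 members. Without overlap between genotypes, 7 members lay lower and 1 lay higher in KO-labelled libraries, where 56.6% and 9.43% of all tested genes did so. The median log2 fold change of the members was -0.37, beside -0.24 for all genes tested. In these bulk libraries, fewer cells of a type and less RNA per cell cannot be told apart.

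Of the nectin-family receptors, CD226 (DNAM-1) is an activating receptor for the CD155 protein encoded by Pvr and for nectin-2, and its gene lies on chromosome 18 (89176967 to 89272229, plus strand). Cd226 was at 4.94 and 6.19 FPKM in KO-labelled replicates 1 and 2 and at 9.44 and 9.12 FPKM in WT-labelled replicates 1 and 2 of the whole OT-I sort. Both KO-labelled libraries lay below both WT-labelled ones. The log2 fold change was -0.65 (SE 0.18, 95% interval -1.0 to -0.31; limma, adjusted p = 0.00154), and it rested on 519 to 893 recovered reads per library. The authors' deposited table gives -0.68 with an adjusted p of 0.0101. Cd226 was the 1 member called lower by edgeR and by DESeq2 on recovered reads and in the authors' deposited table, each of which called 0 higher, beside 15.8%, 15% and 15.4% of their tested genes called lower and 11.8%, 4.89% and 5.03% called higher. Centring each library on its median gene made the Cd226 fold change -0.40 (limma, adjusted p = 0.0602), which ends the call. Upper-quartile scaling and scaling to T cell genes also ended it, as did leaving out KO-labelled replicate 1 (-0.52). The highest adjusted p over all alternatives was 0.311 (limma).

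Ttex cells showed a Cd226 difference of nearly the same size on the deposited scale. There the KO-labelled libraries had 1604 and 1473 normalized counts of Cd226, against 2564 and 2215 in WT-labelled libraries, again with no overlap. The log2 fold change was -0.63 (SE 0.15, 95% interval -1.0 to -0.27) with an unadjusted p of 0.00501, and it was not called over 12559 genes (limma, adjusted p = 0.233). Measured from the median gene of each population, the fold change was -0.57 in Ttex cells and -0.41 in all sorted OT-I cells. The alternatives for Cd226 gave -0.79 to -0.30 in all sorted OT-I cells and -0.74 to -0.53 in Ttex cells, so its direction was kept in each.

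CRTAM, which binds the adhesion molecule encoded by Cadm1, is induced on activated CD8+ T cells. Crtam in KO-labelled Ttex libraries stood at 5865 and 6472 normalized counts and at 4293 and 4340 in WT-labelled ones. The KO-labelled values lay above both WT-labelled values, the direction opposite to Cd226. The log2 fold change was 0.51 (SE 0.12, 95% interval 0.22 to 0.80) with an unadjusted p of 0.00437, not called by limma (adjusted p = 0.231) and called by DESeq2 on recovered reads (0.55, adjusted p = 0.0290). All sorted OT-I cells had 23.7 and 21.4 FPKM of Crtam RNA against 19.7 and 19.7 FPKM, a log2 fold change of 0.18 (limma, adjusted p = 0.510), with no overlap. Centred, it was 0.43 there (adjusted p = 0.0656), and scaling to T cell genes gave 0.57 (adjusted p = 0.0464, limma).

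Within Ttex cells, limma called 0 of 10 members in either direction, where 0.0159% of tested genes were called higher and 0.00796% lower. Crtam, Cd226 and Tnfrsf1b had an unadjusted p under 0.05. edgeR on recovered reads called 0 members, where it called 0.119% of tested genes higher and 0.00795% lower. DESeq2 called 1 member higher, Crtam, and 0 lower, where it called 2.56% and 0.55% of tested genes. Without overlap, 1 member lay higher and 4 lay lower in KO-labelled Ttex libraries (Tnfrsf9, Tnfrsf1b, Icos and Cd226), beside 19.9% and 28.2% of all genes tested.

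**Figure D2:**
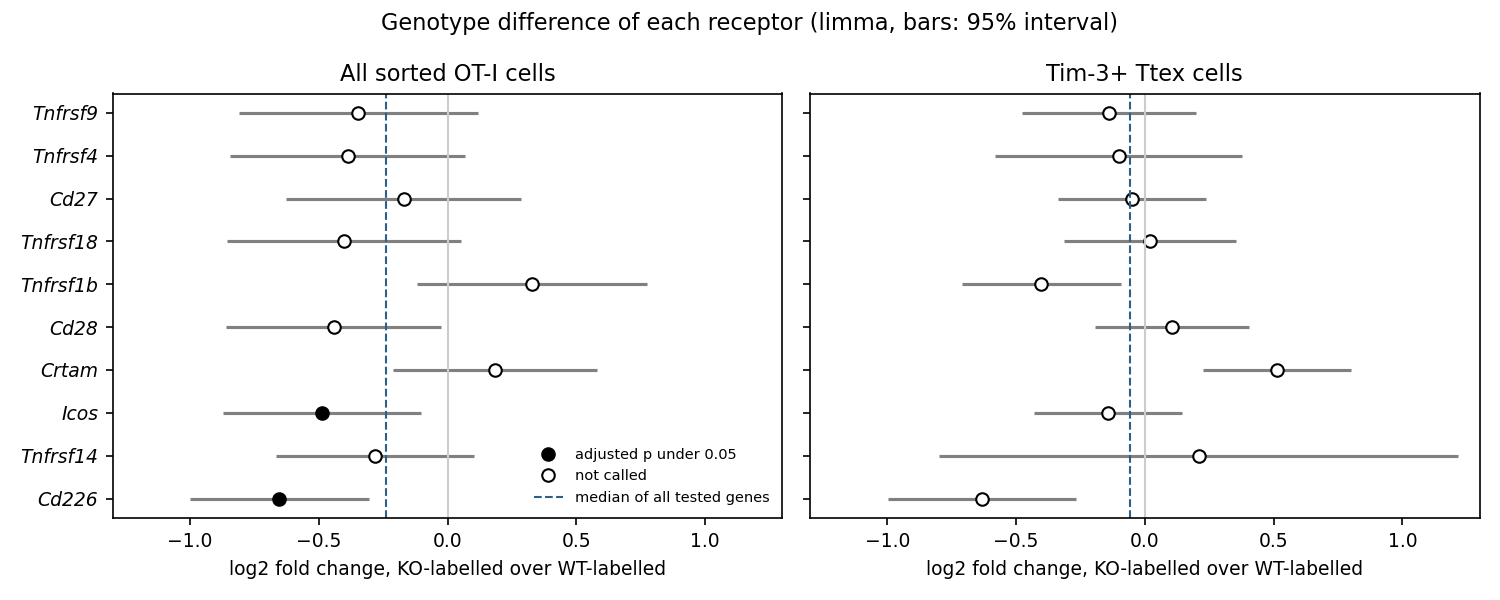
Log2 fold change of each receptor, KO-labelled over WT-labelled, with its 95% interval from limma, in all sorted OT-I cells and in Tim-3+ Ttex cells. Filled points (Icos and Cd226 in all sorted cells) have an adjusted p under 0.05, and the dashed line is the median of all tested genes (-0.24 and -0.06).

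Ratios formed within a library do not depend on how that library was scaled, and these pairs were chosen after their values were seen, so they carry no test. The ratio of Cd226 to Tigit, the inhibitory receptor that shares its ligands, was 0.00617 and 0.00862 in KO-labelled and 0.0109 and 0.0110 in WT-labelled libraries of the whole OT-I sort, per length. For Ttex cells it was 0.0275 and 0.0207 against 0.0297 and 0.0293. KO-labelled libraries had the lower ratio in both populations, with no overlap. The ratio of Cd226 to Cd96, another receptor for the same ligand, was likewise lower, at 0.0305 and 0.0455 against 0.0649 and 0.0598, and in Ttex cells at 0.0819 and 0.0843 against 0.119 and 0.102. The ratio of Crtam to Cd226 ran the other way, at 4.80 and 3.46 against 2.08 and 2.17 in all sorted OT-I cells and at 3.48 and 4.19 against 1.60 and 1.87 in Ttex cells.

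**Figure D3:**
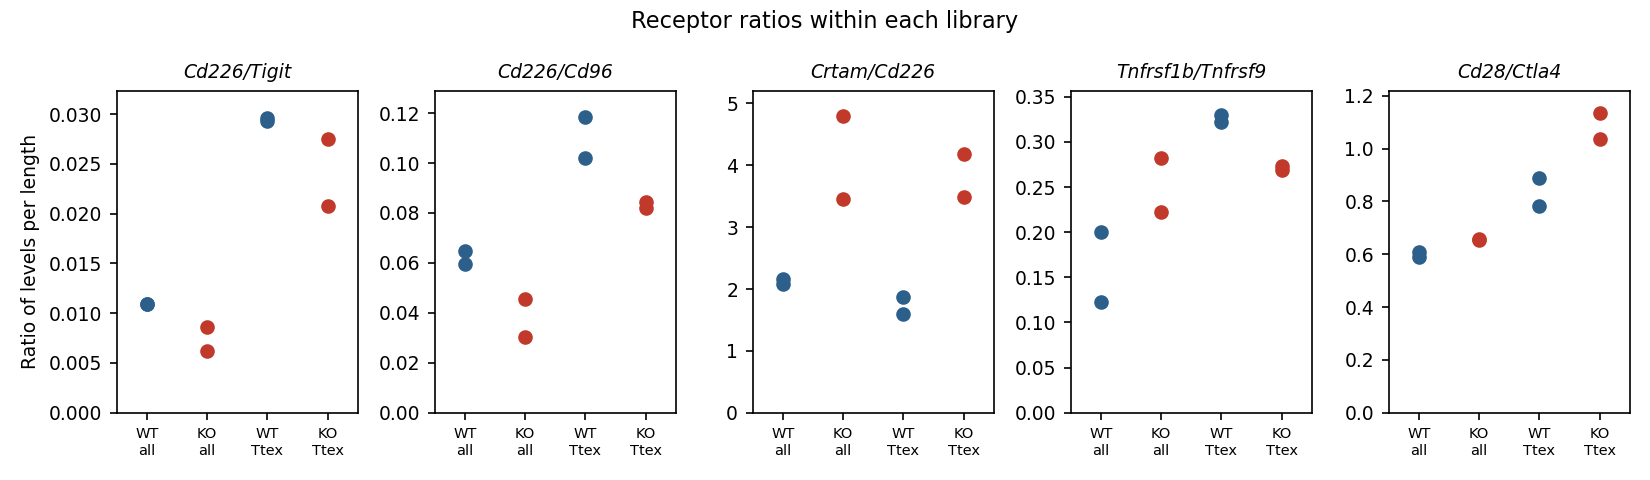
Ratios of 2 receptors' per-length levels within each library, for WT-labelled (blue) and KO-labelled (red) libraries of both populations, on axes starting at 0. Cd226 over Tigit and over Cd96 is lower, and Crtam over Cd226 higher, in KO-labelled libraries of both populations, while Tnfrsf1b over Tnfrsf9 is higher in all sorted cells and lower in Ttex cells.

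In the CD28 family, CD28 is the receptor for CD80 and CD86, and ICOS is its inducible relative, which binds ICOS ligand. Icos was at 14.4 and 13.0 FPKM in KO-labelled and 19.7 and 19.5 FPKM in WT-labelled libraries of the whole OT-I sort, with no overlap. It differed by -0.49 on the log2 scale (SE 0.20; limma, adjusted p = 0.0409), but edgeR on recovered reads gave -0.43 with an adjusted p of 0.0676. Leaving out any 1 of the 4 libraries ended the call (adjusted p 0.0521 to 0.240), and centring gave an adjusted p of 0.316. In Ttex cells Icos was at 3575 and 3634 normalized counts against 3889 and 4073, also without overlap, a log2 fold change of -0.14 (limma, adjusted p = 0.594).

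Cd28 stood at 33.4 and 31.6 FPKM in KO-labelled libraries and at 44.5 FPKM in both WT-labelled ones of the whole OT-I sort. The KO-labelled values were lower without overlap, and the log2 fold change of -0.44 was not called (limma, adjusted p = 0.0960). Ttex cells had 13650 and 11927 normalized counts against 11675 and 12034, overlapping between genotypes (0.11, limma, adjusted p = 0.705). Relative to Ctla4, the inhibitory receptor for the same ligands, Cd28 was higher in KO-labelled libraries, at 0.656 and 0.657 against 0.589 and 0.610 in all sorted OT-I cells. In Ttex cells that ratio was 1.13 and 1.04 against 0.783 and 0.891.

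Tnfrsf9, Tnfrsf4 and Tnfrsf18, the receptors whose promoter windows are shown above, are induced by T cell activation and are the targets of agonist antibodies. Among all sorted cells Tnfrsf9 was at 558 and 432 FPKM in KO-labelled and 637 and 612 FPKM in WT-labelled libraries. Tnfrsf4 was at 222 and 168 against 257 and 249 FPKM, and Tnfrsf18 at 178 and 138 against 217 and 198 FPKM. For each gene both KO-labelled libraries were lower and replicate 2 was the lowest. Their log2 fold changes were -0.35, -0.39 and -0.40, none called (limma, adjusted p = 0.265, 0.196 and 0.175). The ratio of Tnfrsf4 to Tnfrsf18 overlapped between genotypes, at 1.25 and 1.21 against 1.18 and 1.26. In Ttex cells their log2 fold changes were -0.14, -0.10 and 0.02 (limma, adjusted p = 0.664, 0.834 and 0.959). Tnfrsf9 had 39879 and 35173 normalized counts there against 42229 and 40202, without overlap, while Tnfrsf4 (12640 and 8362 against 11169 and 10885) and Tnfrsf18 (9872 and 8719 against 9944 and 8416) overlapped.

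These receptors, with Icos and Ctla4, are also abundant on regulatory CD4+ T cells. A list of 7 CD4 and regulatory T cell markers, Ctla4 among them, summed to 79.6 and 77.4 FPKM in KO-labelled and 118 and 116 FPKM in WT-labelled libraries, with 4 of the 6 tested called lower and none higher (limma). Foxp3 was at 0.458 and 0.226 FPKM against 1.90 and 1.83 FPKM. The NK cell list, of cells that also carry CD226, summed to 46.1 and 42.4 against 105 and 90.2 FPKM, mostly Klre1 and Tyrobp. All 4 of its tested genes were called lower, among them Fcgr3, which the macrophage list also holds, and Klrb1c, below the filter, was at 0.787 and 0.857 against 0.349 and 0.523 FPKM. Limma called lower 18 of 20 tested markers of macrophages, monocytes and dendritic cells, with sums of 472 and 425 against 1011 and 933 FPKM. In the other direction, 4 of 4 tested red blood cell markers were called higher (sums of 22.5 and 15.7 against 10.4 and 8.28 FPKM), and 5 of 7 melanoma and melanocyte markers were called higher and 1 lower (25.6 and 23.5 against 14.2 and 18 FPKM). Over all genes tested in all sorted OT-I cells, limma called 30.4% lower and 2.45% higher.

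For Ttex cells the CD4 and regulatory T cell list summed to 11736 and 11891 normalized counts (KO-labelled) against 13116 and 12948 (WT-labelled), carried mostly by Ctla4, Il2ra and Ikzf2. Its defining genes lay the other way, with Foxp3 at 72.2 and 52.8 against 31.1 and 17.0 and Cd4 at 444 and 327 against 205 and 239 normalized counts. The NK cell list summed to 16155 and 14608 against 16007 and 15394, mostly Klre1 and Eomes, and within it Tyrobp was at 2522 and 1302 against 1029 and 738. The macrophage, monocyte and dendritic cell list summed to 188609 and 145423 normalized counts against 115826 and 92947. Of its genes, 0 of 25 were called by limma, 16 had an unadjusted p under 0.05, and 4 were called higher by edgeR and 13 by DESeq2. Ly6c2 and Cd74 made up most of the sum. Ly6c2 overlapped between genotypes (74724 and 44412 against 59855 and 39739), and Cd74 did not (40812 and 38852 against 16993 and 16787). Csf1r was at 571 and 467 against 264 and 280. Red blood cell markers summed to 17857 and 10643 against 3412 and 2138, with 0 of 5 called by limma, 5 at an unadjusted p under 0.05, and 1 called higher by edgeR and 4 by DESeq2. Over all genes tested in Ttex cells, the shares called higher were 0.0159% by limma, 0.119% by edgeR and 2.56% by DESeq2. The part of these cell types in the receptor values of either population was not tested.

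CD27, which binds CD70, and the HVEM receptor showed small differences. Cd27 was at 209 and 165 FPKM in KO-labelled and 215 and 203 FPKM in WT-labelled libraries of the whole OT-I sort, which overlapped (-0.17, limma, adjusted p = 0.609). After centring the sign of Cd27 turned, to 0.079. Ttex cells had 12378 and 12530 normalized counts of it against 13624 and 12213 (-0.05, limma, adjusted p = 0.868). Tnfrsf14 was at 14.7 and 13.8 against 18.7 and 16.5 FPKM (-0.28, limma, adjusted p = 0.273), without overlap. It was uneven between replicates in Ttex cells, at 307 and 202 against 299 and 155 normalized counts (0.21, SE 0.42, limma, adjusted p = 0.838).

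Tnfrsf1b, like Tnfrsf14, Tnfrsf18 and Cd28, had fold changes of opposite sign in the 2 populations, none of them called by limma. TNF receptor 2 binds TNF and, unlike TNF receptor 1, has no death domain. In the whole OT-I sort Tnfrsf1b was at 124 and 122 FPKM in KO-labelled and at 77.9 and 123 FPKM in WT-labelled libraries, so that WT-labelled replicate 1 was low and replicate 2 lay within the KO-labelled range. The log2 fold change was 0.33 (limma, adjusted p = 0.276), and 0.58 after centring (adjusted p = 0.0444). Centred, it was the 1 member called higher and 0 were called lower, beside 10.7% and 11.9% of tested genes. Without WT-labelled replicate 1 it was 0.00. In Ttex cells Tnfrsf1b was at 15318 and 13272 normalized counts against 19078 and 18586, lower in KO-labelled libraries without overlap (-0.40, SE 0.13, limma, unadjusted p = 0.0182, adjusted p = 0.286). The difference between populations, Ttex minus all sorted OT-I cells, was -0.73 on the log2 scale (95% interval -1.34 to -0.11, unadjusted p = 0.0238, limma adjusted p = 0.109). DESeq2 on recovered reads gave -0.88 with an adjusted p of 0.00880 and edgeR -0.84 with 0.0629. Leaving out WT-labelled replicate 1 of all sorted OT-I cells made it -0.40 (adjusted p = 0.414), and leaving out replicate 2 made it -1.05 (adjusted p = 0.0307, limma).

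Over the 8962 genes tested in both tables, limma called 10.4% with a higher and 0.982% with a lower fold change in Ttex cells than in all sorted OT-I cells, and 0 of the 10 members in either direction. Tnfrsf1b and Cd28 had an unadjusted p under 0.05, edgeR called 0 members (6.91% of tested genes higher and 2.01% lower) and DESeq2 called Tnfrsf1b lower (10.6% higher and 5.25% lower). The median difference over all tested genes was 0.17 on the log2 scale, so a difference near 0.17 is that of the median gene. By limma, 7 members lay above that median and 3 below. Cd28 differed by 0.55 (95% interval 0.089 to 1.01, limma adjusted p = 0.106), or by 0.38 measured from that median. For Cd226 the difference was 0.02 (95% interval -0.46 to 0.50, limma adjusted p = 0.961) and for Crtam 0.33 (95% interval -0.11 to 0.77, adjusted p = 0.308), intervals that include both no difference and differences as large as several of the fold changes themselves. Measured from the median difference, Cd226 was at -0.15 and Crtam at 0.16. The remaining 6 members differed by 0.12 to 0.49, with adjusted p of 0.271 to 0.774.

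**Figure D4:**
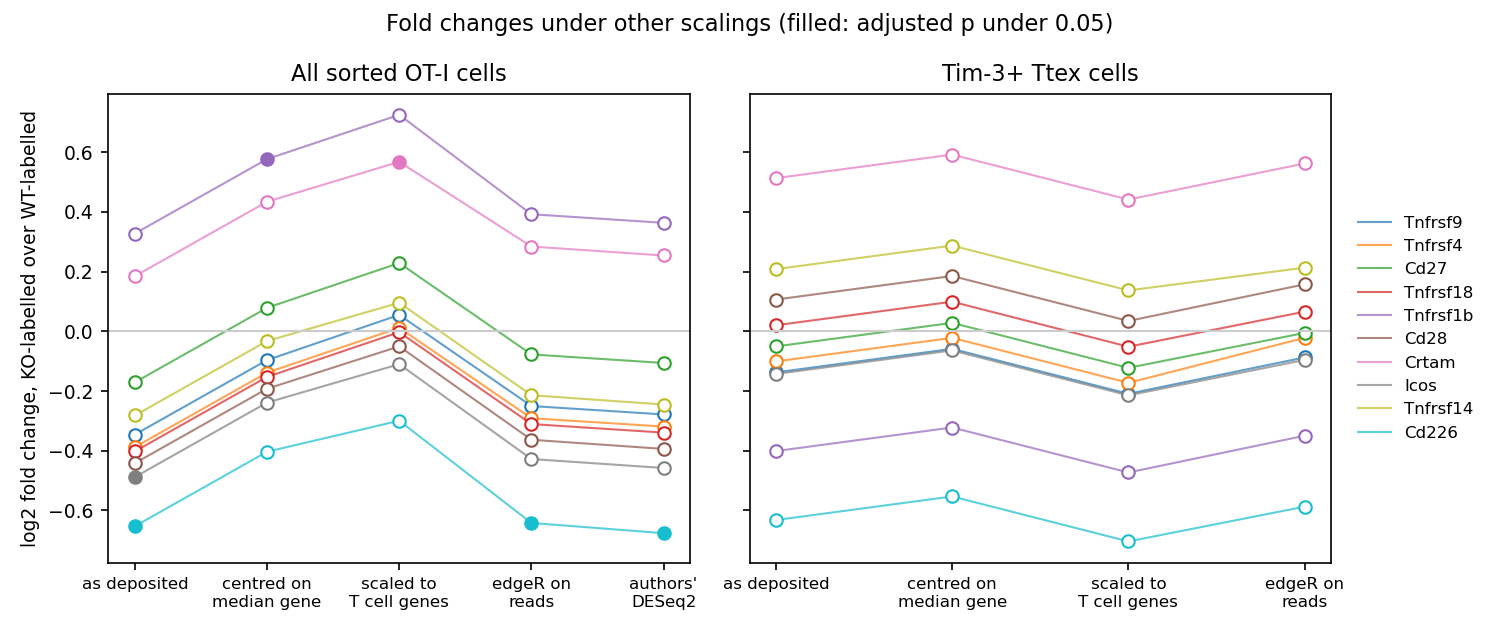
Log2 fold change of each receptor, KO-labelled over WT-labelled, under other scalings and count tests in all sorted OT-I cells and Tim-3+ Ttex cells. Filled points have an adjusted p under 0.05, and Cd226 stays below 0 and Crtam above 0 under each scaling shown, while Cd27 crosses 0 in both populations.

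RNA of the listed ligand genes ranged widely in all sorted OT-I cells. Ltb was at 127 to 207 FPKM and Tnfsf4 at 52.0 to 67.5 FPKM, while Tnfsf18, Nectin2 and Cadm1 fell below the 1 FPKM filter. Of 14 ligand genes 11 were tested in all sorted OT-I cells and limma called 0. Their median was -0.11 on the log2 scale, while 2 had an unadjusted p under 0.05 and both edgeR and DESeq2 called 0. After centring, limma called 1 ligand higher, Tnfsf14 (adjusted p = 0.00318), beside 10.7% of tested genes. It was at 9.71 and 8.01 FPKM in KO-labelled and 5.52 and 7.65 FPKM in WT-labelled libraries, and was named after its values were seen. Of the 2 most abundant, Ltb, a membrane lymphotoxin subunit, had a log2 fold change of -0.37 and Tnfsf4, the OX40 ligand gene, of 0.21 (limma, adjusted p = 0.221 and 0.5). In Ttex cells limma and edgeR called 0 of 13 ligands, 4 had an unadjusted p under 0.05, and Ltb and Tnf each had a log2 fold change of 0.11 (adjusted p = 0.761 and 0.844, limma). DESeq2 on recovered reads called 2 higher there, beside 2.56% of tested genes, and both were named after their values were seen. Tnfsf14, the gene of the HVEM ligand LIGHT, had 1803 and 1527 normalized counts in KO-labelled and 875 and 634 in WT-labelled Ttex libraries (DESeq2, 1.18, adjusted p = 0.000187). Cadm1, the CRTAM ligand gene, was at 836 and 1204 against 414 and 320 (DESeq2, 1.51, adjusted p = 3.62e-05). Melanoma and melanocyte markers summed to 71008 and 74636 normalized counts in the same KO-labelled libraries against 34391 and 35843, and their part in these ligand values was not tested.

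The 9 inhibitory receptors listed share ligands or signalling routes with the members, or bind a member. Of these, Ctla4 and Pvrig fell in all sorted OT-I cells and none rose, beside 30.4% of all tested genes called lower. Ctla4 was at 51.0 and 48.1 FPKM in KO-labelled and 75.5 and 72.9 FPKM in WT-labelled libraries (-0.57, limma, adjusted p = 0.0313). Pvrig, an inhibitory receptor for nectin-2, was at 13.2 and 14.1 against 21.3 and 19.9 FPKM (-0.56, limma, adjusted p = 0.0175). After centring neither was called (adjusted p = 0.226 and 0.186). Of 8 tested in Ttex cells limma and edgeR called 0, and 2 had an unadjusted p under 0.05. DESeq2 called Btla higher (0.94, adjusted p = 0.0448) and Havcr2, the Tim-3 gene used for the sort, lower (-0.53, adjusted p = 0.0209), beside 2.56% and 0.55% of tested genes. Both were named after their values were seen. Lag3 and Pdcd1, the most abundant, had log2 fold changes of -0.10 and -0.25 (limma, adjusted p = 0.763 and 0.447).

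Downstream of the receptors, 7 of 33 adaptor and NF-kB genes were called lower and none higher in all sorted OT-I cells, beside 30.4% of all tested genes called lower, and the list's median was -0.16 on the log2 scale. Grb2, an adaptor that binds the CD28 tail, was at 6.95 and 6.08 FPKM in KO-labelled and 20.3 and 19.0 FPKM in WT-labelled libraries (-1.46, limma, adjusted p = 6.69e-13). Fyn, a Src family kinase, fell by 1.11, Chuk, an IkB kinase subunit, by 1.08, Nfkb1 by 0.98 and Malt1, a paracaspase of the route to NF-kB, by 0.68 on the log2 scale (limma, adjusted p = 3.96e-07, 5.45e-09, 5.66e-07 and 5.93e-05). The remaining 2, Traf3 and Rel, were at -0.55 and -0.44. After centring, these first 5 stayed called lower and 4 others were called higher, beside 11.9% and 10.7% of tested genes. By edgeR 6 were called lower and 1 higher, Pik3cd, a phosphatidylinositol 3-kinase subunit gene named after its values were seen. In Ttex cells limma and edgeR called 0 of the 33, with a median of -0.14, and 4 had an unadjusted p under 0.05. Beside 0.55% of tested genes, DESeq2 called 1 of the 33 lower there, Tnfaip3, which encodes the NF-kB inhibitor A20, named after its values were seen (17214 and 19882 against 27530 and 29153 normalized counts, -0.57, adjusted p = 0.0161). Lck and Nfkbia, the most abundant, had log2 fold changes of -0.10 and -0.06 (limma, adjusted p = 0.766 and 0.836).

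Of 20 other accessory molecules tested in all sorted OT-I cells, 3 rose and 1 fell, with a median of -0.03, beside 2.45% and 30.4% of all tested genes. Tnfrsf13c, the BAFF receptor gene, was at 6.51 and 4.01 FPKM in KO-labelled and 3.76 and 2.76 FPKM in WT-labelled libraries (0.54, limma, adjusted p = 0.00561). Slamf6, a SLAM family receptor of progenitor exhausted T cells, was at 6.44 and 6.22 against 3.93 and 4.30 FPKM (0.52, limma, adjusted p = 0.00960). Tnfrsf26, a TNF receptor family gene, rose by 0.43 (limma, adjusted p = 0.0240). Cd48, which encodes a ligand of CD2 and CD244, fell from 451 and 407 FPKM in WT-labelled to 302 and 250 FPKM in KO-labelled libraries (-0.64, limma, adjusted p = 0.0249). Centring ended the call of Cd48 (adjusted p = 0.209), and DESeq2 did not call Tnfrsf13c (adjusted p = 0.0771) or Tnfrsf26 (0.0719). In Ttex cells limma, edgeR and DESeq2 called 0 of 21, with 4 at an unadjusted p under 0.05. The most abundant there, Cd6 and Itgal, had log2 fold changes of -0.30 and -0.40 (limma, adjusted p = 0.354 and 0.276).

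**Figure D5:**
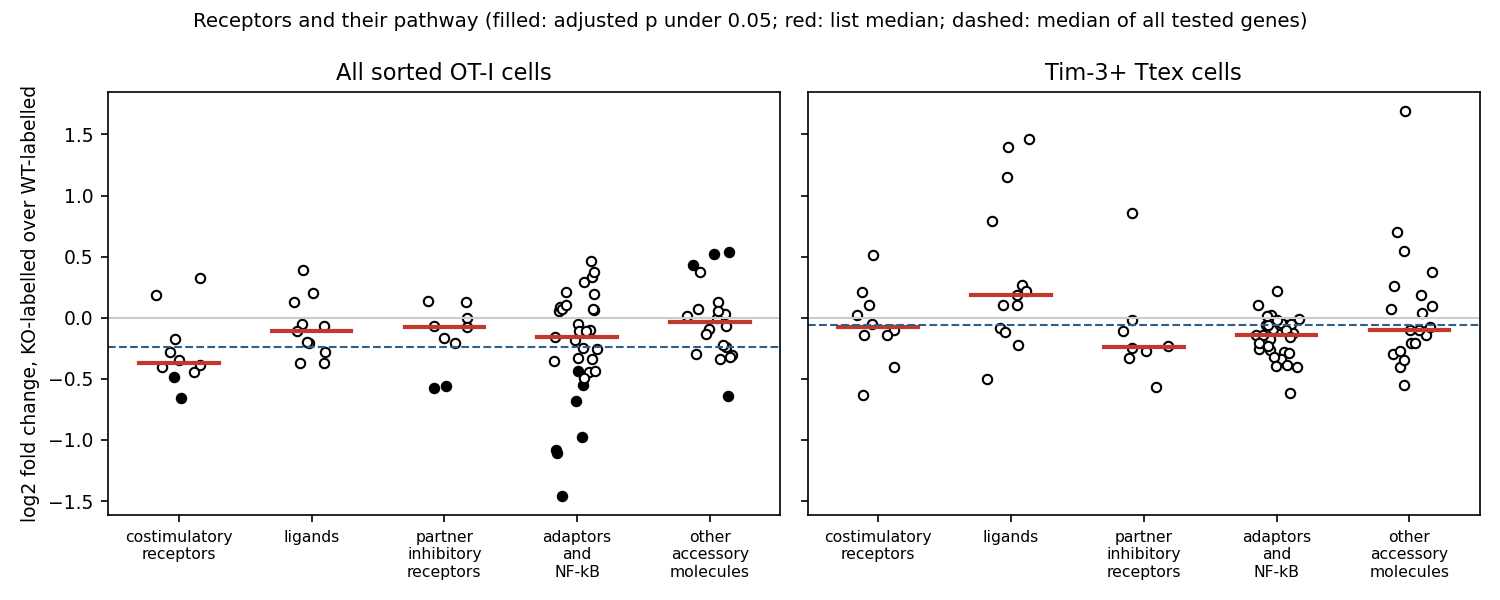
Log2 fold changes, KO-labelled over WT-labelled, of the receptors and of 4 lists of related genes, with 1 point per tested gene, in all sorted OT-I cells and Tim-3+ Ttex cells. Filled points have an adjusted p under 0.05, red bars are list medians and the dashed line is the median of all tested genes; the called adaptor and NF-kB genes, led by Grb2 at -1.46, lie below it in all sorted cells.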

How the data were processed

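Total RNA was taken up in TRIzol and sequenced at BGI, per the labels' protocols. Per the submitters' processing notes, mm10 and the tools Trim Galore 0.4.4, Bowtie2, RSEM, featureCounts and DESeq2 were used, with no step named for each. The authors deposited a table of all sorted OT-I cells whose header names no unit, and whose values look like FPKM. When each was multiplied by GENCODE M21 merged exon length and divided by the step of 1 read, 98.3 to 98.4% of values of 13171 genes lay within 0.1 read of a whole number. The same deposited table holds the authors' mean counts, log2 fold changes, a test score, p-values and adjusted p-values. The deposited Ttex table holds gene counts divided by size factors, a normalized signal, of which 100% gave whole reads. Recovered reads served for depths and for edgeR 4.0.16 and DESeq2 1.42.0.

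Each comparison was fitted with limma 3.58.1 and its trend option, two-sided, after log2 transformation with a pseudocount of 1. Benjamini-Hochberg adjustment ran over all genes whose mean reached 1 FPKM or 10 normalized counts, at a threshold of 0.05. Fold changes are on that scale, which understates those of low genes. For the table of all sorted cells the prior degrees of freedom were infinite, so each SE is that of genes at that level. The difference between populations was the interaction term over genes tested in both tables. The script was tested on simulated data. The members, lists and tests were chosen with earlier results of these data known. Named list genes are the called genes with the largest fold change, at most 5 per list, or the 2 with the highest mean where none was called. Alternatives were other scalings, a pseudocount of 0.1, no filter, a replicate block, leaving out each library, edgeR, DESeq2 and the authors' calls. Arms reduced to 1 library were assumed to vary like the other groups.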

Additional observations from a re-analysis of the deposited data

How the results depend on the processing

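In all sorted OT-I cells, 2 members were called lower and 0 higher. Centring on the median gene gave 0 lower and 1 higher (Tnfrsf1b), scaling to T cell genes 0 lower and 1 higher (Crtam), and upper-quartile scaling 0 lower. edgeR, DESeq2 and the authors' deposited table each gave 1 lower, and leaving out single libraries 0 to 1. In Ttex cells DESeq2 called 1 member higher, and leaving out single libraries called 0. For the difference between populations, DESeq2 called 1 lower, and leaving out single libraries 0 to 1 in each direction. Deviations of same-numbered libraries correlated at 0.2987 and 0.1386 across 9574 and 12559 genes, but with 2 pairs a pairing is not established. With the replicate block, 6 members (Tnfrsf9, Tnfrsf4, Tnfrsf18, Cd28, Icos and Cd226) were called lower in all sorted OT-I cells, where it called 3510 of 9574 genes lower and 326 higher, and 1 higher (Crtam) and 2 lower (Cd226 and Tnfrsf1b) in Ttex cells, and 1 in each direction for the difference.

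Signs turned in 36 of 410 alternative member values. Scaling to T cell genes gave 0.055 for Tnfrsf9, 0.012 for Tnfrsf4, 0.096 for Tnfrsf14 and 0.23 for Cd27 in all sorted OT-I cells, and -0.052 for Tnfrsf18 in Ttex cells. Cd27 was 0.079 after centring or upper-quartile scaling of all sorted cells, and 0.028 and 0.025 in Ttex cells. Leaving out single Ttex libraries gave -0.40 to 0.20 for Tnfrsf4, -0.10 to 0.14 for Tnfrsf18, -0.26 to 0.68 for Tnfrsf14 and -0.13 to 0.028 for Cd27. For the difference between populations, scaling to T cell genes gave -0.26 for Tnfrsf9, -0.18 for Tnfrsf4, -0.049 for Tnfrsf18, -0.35 for Cd27, -0.10 for Icos, -0.40 for Cd226 and -0.13 for Crtam. Centring, upper-quartile scaling, edgeR and DESeq2 gave -0.050, -0.054, -0.017 and -0.062 for Cd27 and -0.15, -0.12, -0.036 and -0.083 for Cd226. Leaving out single libraries gave -0.011 to 0.59 for Tnfrsf4, -0.049 to 0.29 for Cd27 and -0.12 to 0.16 for Cd226. The cause was not tested. Centring changed the calls over all genes in all sorted OT-I cells from 235 higher and 2909 lower to 1027 and 1141. edgeR gave 1847 and 2471 there, and the authors called 744 and 2275. In Ttex cells limma called 2 higher and 1 lower, edgeR 15 and 1, DESeq2 316 and 68, and the block 453 and 391. With 2 libraries per group, the widest Ttex interval of a member, that of Tnfrsf14, ran from -0.80 to 1.21 on the log2 scale.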
